A study of Mus musculus with 18 samples.

Results

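Ribosome biogenesis factors and the Myc network were followed across Fabp4 genotypes in mouse bone marrow cells as a list of 40 named genes. The list held 5 genes of RNA polymerase I and its initiation factors and 3 nucleolar proteins (Npm1, Ncl and Ddx21). It also held 3 and 4 proteins of the box C/D and box H/ACA RNA-modifying particles and 2 nucleolar chaperones of these particles. The other genes were 12 factors of the small subunit, 8 of the large subunit, and Myc with its partners Max and Mxd1. All 40 were found by gene name among 22017 genes of an in vitro table and among 13195 genes of a sorted marrow table. No measured value chose them, but they were listed with earlier results of these data known.

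Bulk RNA sequencing was done on cells from Fabp4 homozygous knockout (KO), heterozygous (HET) and wild-type (WT) mice; Fabp4 encodes a fatty acid binding protein of adipocytes and macrophages. One set was sorted from what the labels call vitro bone marrow (the in vitro set, n = 3 KO, 3 HET and 3 WT libraries), and the other was sorted from bone marrow directly (the sorted marrow set, n = 3 KO, 2 HET and 3 WT libraries, since HET replicate 2 was not used here). Which cells were sorted, how the in vitro cells were grown, the strain, age and sex of the mice and the design of the Fabp4 allele are not stated in the sources used here. Values are FPKM, fragments scaled by transcript length and by mapped fragments, as the authors deposited them.

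Ribosomes are built in the nucleolus. RNA polymerase I transcribes the ribosomal RNA precursor, small nucleolar RNA particles guide its chemical modification and cleavage, and separate sets of assembly factors mature the small and the large subunit before export. Myc, a transcription factor that binds DNA together with Max, is known to raise the transcription of many of these genes in dividing blood progenitors, and Mxd1 competes with Myc for Max and represses shared targets.

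The sequences before the RefSeq start of 4 members are shown because Gnl3, Nop2 and Polr1b were the members past the threshold in KO cells and Rrn3 carried the Myc and Max recognition motif, the E-box CACGTG, more than once. CACGTG reads the same on both strands and a match to it is never also a match to the variant CACGCG. Each run is the 250 bases before the RefSeq transcription start on build GRCm38.p6, 5′ to 3′ on the gene's own strand, with any CACGTG in capitals. The regions are chr14:31019132-31019381 (minus strand) for Gnl3, chr6:125131633-125131882 (plus strand) for Nop2, chr2:129100746-129100995 (plus strand) for Polr1b and chr16:13780449-13780698 (plus strand) for Rrn3. RefSeq and GENCODE place some starts differently: the last 21 bases of the Gnl3 run and the last 1 of the Polr1b run lie inside the GENCODE gene spans given further on, while the Nop2 and Rrn3 runs end before theirs.
Gnl3: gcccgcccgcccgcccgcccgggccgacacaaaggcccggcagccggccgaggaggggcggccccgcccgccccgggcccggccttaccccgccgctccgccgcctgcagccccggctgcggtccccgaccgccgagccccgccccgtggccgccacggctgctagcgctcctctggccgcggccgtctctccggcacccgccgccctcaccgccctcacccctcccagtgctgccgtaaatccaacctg
Nop2: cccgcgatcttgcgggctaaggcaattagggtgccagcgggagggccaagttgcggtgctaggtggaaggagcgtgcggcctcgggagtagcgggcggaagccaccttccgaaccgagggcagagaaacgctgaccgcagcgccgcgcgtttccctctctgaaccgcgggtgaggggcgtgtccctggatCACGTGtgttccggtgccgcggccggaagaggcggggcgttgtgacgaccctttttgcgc
Polr1b: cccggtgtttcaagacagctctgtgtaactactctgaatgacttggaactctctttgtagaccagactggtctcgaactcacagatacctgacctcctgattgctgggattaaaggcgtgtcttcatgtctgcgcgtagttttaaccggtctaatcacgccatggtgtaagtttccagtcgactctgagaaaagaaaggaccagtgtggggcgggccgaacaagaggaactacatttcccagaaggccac
Rrn3: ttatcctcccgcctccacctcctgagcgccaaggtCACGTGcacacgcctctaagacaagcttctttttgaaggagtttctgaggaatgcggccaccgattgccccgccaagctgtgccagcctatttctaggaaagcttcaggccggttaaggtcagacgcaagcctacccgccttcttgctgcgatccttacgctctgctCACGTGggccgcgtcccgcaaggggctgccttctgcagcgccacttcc
Nop2 held 1 match, which began at position -60 from the start, and Rrn3 held 2, at -215 and -48. No CACGTG lay in the window of Gnl3 or Polr1b.

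Across the 32 members with a RefSeq promoter entry, CACGTG was present within the 300 bases from 250 before to 50 after the start in 7, or 21.9%, against 7.24% of all 27025 promoters of that length. The 7 were Ltv1, Max, Nop2, Pes1, Rrn3, Utp20 and Wdr43. The variant CACGCG, searched on both strands, was present in 8 of the 32, or 25%, against 9.36% of all promoters. The 27025 promoters include genes that were not tested here, whereas all members were tested in vitro. For both motifs the shares therefore rest on unlike sets of genes. Members with CACGTG had a median log2 difference between KO and WT in vitro of 0.17 (n = 7), and the members with an entry that lacked it had a median of 0.14 (n = 25). A match is a description of letters and not a bound site.

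Depth, the targeted gene and cell markers set limits on what follows. In vitro libraries held an estimated 30.6 to 36.8 M fragments. Sorted marrow HET libraries 1 and 3 held 3.94 and 11.6 M, against 16.3 to 35.9 M in the KO and WT libraries of that set. Fabp4 itself was listed at 0 FPKM in all 3 KO in vitro libraries, at 0, 0.0676 and 0 in HET and at 0, 0.0326 and 0.330 in WT, levels too low to check the genotype labels. The sorted marrow set held no Fabp4 value by gene name, so the labels could not be checked there either. Pan leukocyte markers were present in every library, with sums of 931 to 949 FPKM in KO, 930 to 991 in HET and 801 to 969 in WT in vitro, while B cell, T cell and adipocyte marker sums stayed under 9 FPKM there. In bulk samples, fewer cells of a type and less RNA per cell cannot be told apart. The design speaks of 3 mice per genotype and set without tying each library to a mouse, so the p-values measure the spread between libraries, which may be technical.

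In vitro, transcripts of 3 members rose in KO cells and none fell. Gnl3, Nop2 and Polr1b were higher in KO than in WT libraries by 0.72, 0.72 and 0.63 on the log2(FPKM + 1) scale. These 3 of 40 (7.5%) stand beside 2.99% of all 10877 tested genes past the same threshold of an adjusted p under 0.05, and beside 1.36% that were higher and 1.63% that were lower. The abundant nucleolar proteins Ncl, Npm1 and Fbl and the H/ACA proteins gave no call in any in vitro comparison under these settings.

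Gnl3 encodes nucleostemin, a nucleolar GTP-binding protein abundant in stem and cycling cells that acts in large subunit assembly, and lies on chromosome 14 from 31012433 to 31019152 on the minus strand (GRCm38). Its level was 62.0, 51.5 and 65.4 FPKM in KO libraries 1 to 3, 60.9, 41.4 and 39.2 FPKM in HET libraries and 36.2, 35.7 and 34.9 FPKM in WT libraries. All KO and all HET libraries lay above all WT libraries, and HET 1 lay among the KO values while HET 2 and 3 lay below them. The means were 59.6 ± 7.28 FPKM in KO and 35.6 ± 0.634 FPKM in WT cells (SD, n = 3 each), with a log2 change of 0.72 ± 0.14 (SE) and an adjusted p of 0.0231 in limma. Gnl3 shares exon sequence with Pbrm1 on the other strand, so with the strand setting unknown its value may hold Pbrm1 reads.

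Nop2 encodes a nucleolar RNA methyltransferase that acts on the large subunit RNA, on chromosome 6 from 125131909 to 125144753 on the plus strand. It was at 33.3, 25.3 and 33.1 FPKM in KO, 38.1, 24.7 and 24.0 FPKM in HET and 19.6, 17.8 and 16.7 FPKM in WT libraries. Every KO and HET library again exceeded every WT library. KO cells averaged 30.6 ± 4.58 FPKM and WT cells 18.0 ± 1.48 FPKM (SD, n = 3 each), with a log2 change of 0.72 ± 0.16 (SE) and an adjusted p of 0.0365 in limma.

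Polr1b encodes the subunit that forms the active centre of RNA polymerase I together with Polr1a, on chromosome 2 from 129100995 to 129126594 on the plus strand. Polr1b was at 9.38, 7.15 and 9.83 FPKM in KO, 11.2, 7.95 and 7.32 FPKM in HET and 5.16, 5.37 and 5.24 FPKM in WT libraries. The WT libraries were nearly equal and lay below all the others. The KO minus WT log2 change was 0.63 ± 0.15 (SE, limma adjusted p = 0.0437), with means of 8.79 ± 1.44 FPKM in KO and 5.26 ± 0.106 FPKM in WT cells (SD, n = 3 each).

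These calls sat close to the threshold and depended on single libraries. Without KO 1, KO 3, WT 2 or WT 3 in turn, 0 of the 40 members passed, while all tested genes gave 71, 66, 138 and 258 calls. The count of members was 2 without WT 1, 1 without HET 2, 3 without HET 3, 5 without KO 2 and 7 without HET 1, while all tested genes gave 386, 197, 235, 475 and 396 calls. With no filter on low values beyond a value above 0 in 3 libraries 0 members and 152 genes passed, and after rescaling to TPM 1 member and 245 genes did.

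**Figure D1:**
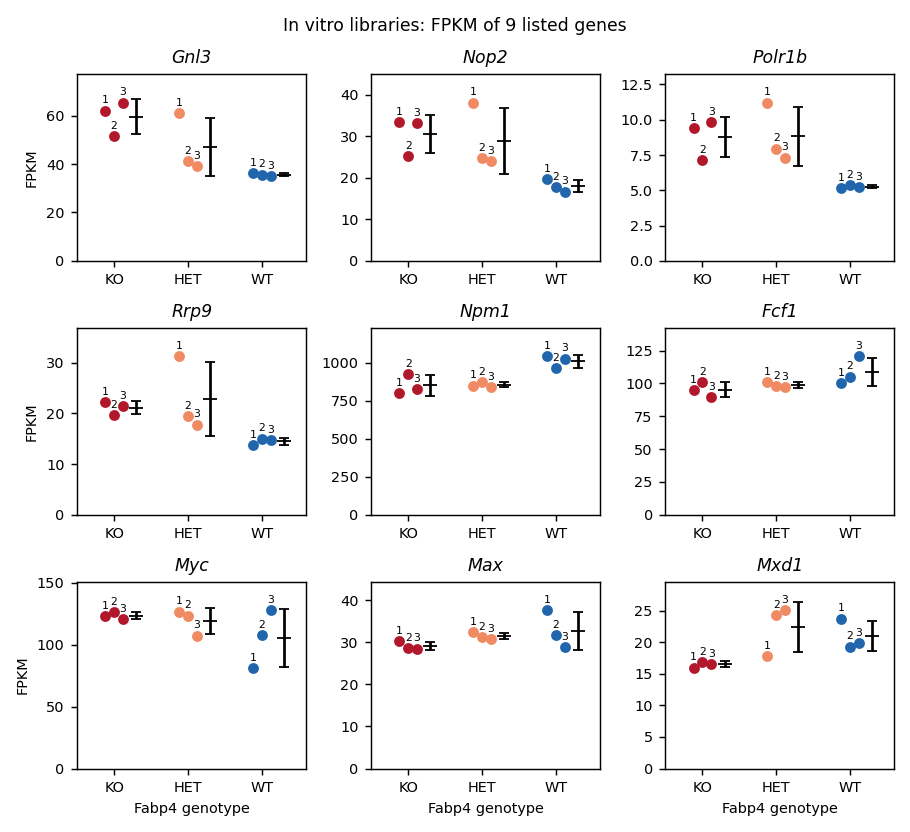
FPKM of 9 listed genes in the in vitro libraries by Fabp4 genotype. Points are libraries with their replicate number, and the black bar is the mean ± SD (n = 3); Gnl3, Nop2 and Polr1b are lower in all WT libraries than in all KO and HET libraries, while Myc, Max and Fcf1 overlap between KO and WT.

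The wider list leaned the same way with smaller differences. The median log2 difference between KO and WT over the 40 members was 0.14, against 0.04 over all tested genes, and 28 of the 40 were positive. The KO and WT libraries did not overlap for 17 members, 15 with KO above and 2 with KO below, which is 42.5% of the list beside 22.9% of all tested genes (13.8% above and 9.09% below). Without KO 2 the members without overlap numbered 29 (72.5%), and the share of all tested genes was larger as well, at 44.9%. Unadjusted p was under 0.05 for 15 members, beside 19.4% of all tested genes.

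**Figure D2:**
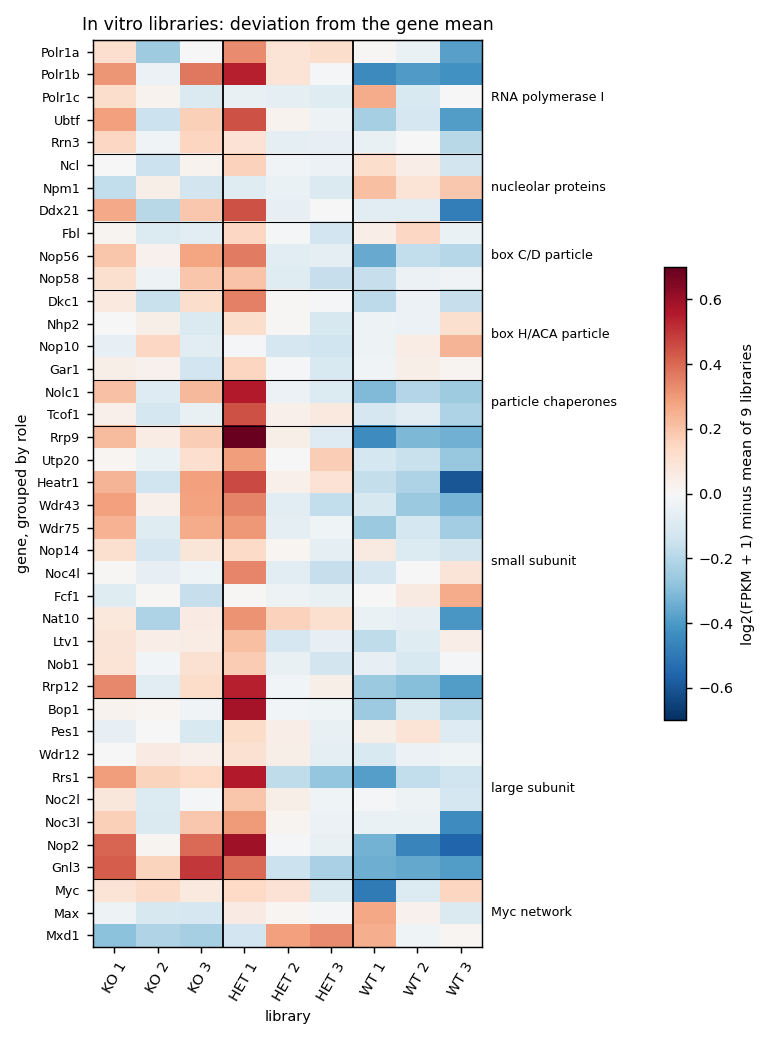
Deviation of each library from the gene's mean over 9 in vitro libraries, in log2(FPKM + 1), for the 40 listed genes by role; columns are KO, HET and WT libraries 1 to 3. HET 1 is the darkest red column, highest of all 9 libraries for 31 genes, and the WT columns are mostly blue.

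Among RNA polymerase I genes, only Polr1b passed the threshold in KO cells under the chosen settings. Polr1a, the catalytic subunit, was at 8.37, 6.28 and 7.67 FPKM in KO, 9.89, 8.23 and 8.40 FPKM in HET and 7.71, 7.36 and 5.63 FPKM in WT libraries. KO and WT overlapped (log2 difference 0.10, limma adjusted p = 0.731), whereas every HET library was above every WT library (log2 difference 0.32, limma adjusted p = 0.166). Polr1c, a subunit shared with RNA polymerase III, differed by -0.04 between KO and WT, and the initiation factors Ubtf and Rrn3 by 0.35 and 0.17 (limma adjusted p of 0.874, 0.213 and 0.312).

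The 3 most abundant members were Npm1, Ncl and Fbl, and none leaned upward in KO against WT. Ddx21, listed with Npm1 and Ncl as a nucleolar protein, did lean upward. Its log2 difference was 0.30 in KO and 0.34 in HET against WT (limma adjusted p of 0.332 and 0.221). Npm1, nucleophosmin, a chaperone that shuttles between nucleolus and cytoplasm, had the highest level of the list at a mean of 906 FPKM over the 9 libraries, and Utp20 the lowest at 2.64 FPKM. Npm1 was at 800.1, 928 and 826 FPKM in KO, 850.2, 874 and 840.3 FPKM in HET and 1042, 962 and 1028 FPKM in WT libraries, so that KO and HET both lay below WT. The log2 difference was -0.25 between KO and WT (limma adjusted p = 0.0880) and -0.24 between HET and WT (limma adjusted p = 0.0832), neither past the threshold. Without KO 2 it passed in KO against WT (-0.31, limma adjusted p = 0.0279), and in that same fit in HET against WT (limma adjusted p = 0.0403). Npm1 has 8 annotated pseudogene transcripts that match it at 90% identity or more over at least 300 bases, so its value may hold reads shared with copies. Such copies exist for 12 of the 40 members, and exons of 14 members overlap a gene on the other strand.

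Ncl, nucleolin, which binds nascent ribosomal RNA, was at 137.5, 124 and 140.2 FPKM in KO, 154, 135 and 134 FPKM in HET and 150, 142 and 126 FPKM in WT libraries. Fbl, fibrillarin, the methyltransferase of box C/D particles, was at 131, 121 and 123 FPKM in KO, 144, 129 and 118 FPKM in HET and 134, 143 and 125 FPKM in WT libraries. The genotypes overlapped for both genes. Their log2 differences between KO and WT were -0.06 and -0.10 (limma adjusted p of 0.778 and 0.561).

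No protein of the modification particles was called. Nop56, a box C/D scaffold, averaged 46.3 ± 4.04 FPKM in KO and 34.7 ± 2.36 FPKM in WT cells (SD, n = 3 each), with no overlap and a log2 difference of 0.41 (limma adjusted p = 0.0885). Its partner Nop58 differed by 0.17. The H/ACA proteins Dkc1 (the pseudouridine synthase dyskerin), Nhp2, Nop10 and Gar1 differed by 0.14, -0.03, -0.08 and -0.03. The chaperones Nolc1 and Tcof1 differed by 0.37 and 0.09, and Nolc1 did not overlap between KO and WT.

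Small subunit factors gave 0 calls among 12 genes in KO against WT, with a median log2 difference of 0.18. KO lay above WT without overlap for 7 genes and below for 0, beside 13.8% and 9.09% of all tested genes. Those 7 were Rrp9, a protein of the particle that guides the first cleavages of the precursor; Heatr1, Wdr43, Wdr75 and Utp20, members of the processing complex that forms on it; Rrp12, an export factor; and Ltv1, a late assembly factor. Their log2 differences ran from 0.13 for Ltv1 to 0.51 for Rrp9 (limma adjusted p of 0.479 and 0.110). Fcf1, a nuclease-family processing protein, leaned the other way at -0.19 (limma adjusted p = 0.227).

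Large subunit factors held 2 of the 3 calls, Gnl3 and Nop2. KO lay above WT without overlap for 5 of their 8 genes and below for 0, beside 13.8% and 9.09% of all tested genes. The other 3 of the 5 were Bop1 and Wdr12, which work with Pes1 in one assembly complex, and Rrs1, which acts in placing the smallest large subunit RNA. Bop1, Wdr12 and Pes1 differed by 0.19, 0.09 and -0.07, and none of the 3 was past the threshold. Noc2l and Noc3l, which travel with large subunit precursors, differed by 0.05 and 0.26.

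**Figure D3:**
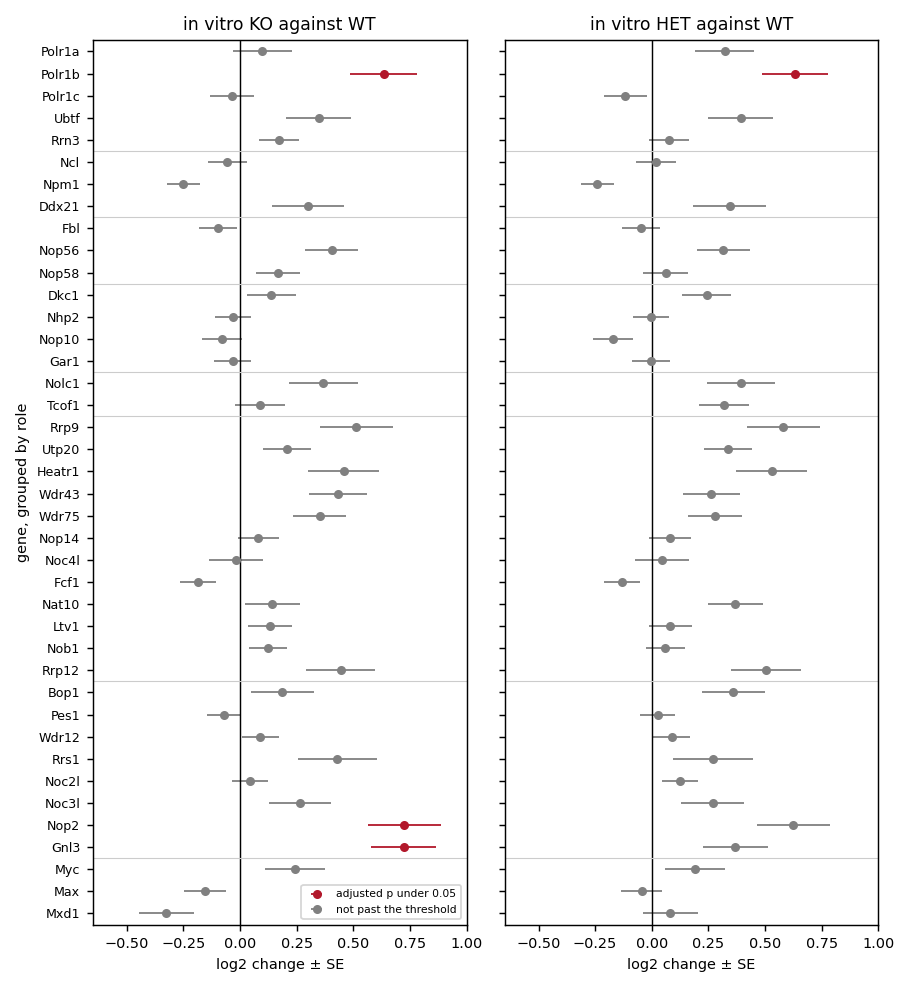
Log2 change with its SE for each of the 40 listed genes by role, KO against WT on the left and HET against WT on the right, from the limma fit on log2(FPKM + 1). Red marks an adjusted p under 0.05: Gnl3, Nop2 and Polr1b on the left and Polr1b on the right.

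Myc was abundant in every in vitro library and did not pass the threshold. It was at 123, 126 and 120.5 FPKM in KO, 127, 123 and 107 FPKM in HET and 81.3, 108 and 128 FPKM in WT libraries. The KO values were close together and the WT values spread over a range that covered them. The means were 123 ± 2.78 FPKM in KO and 106 ± 23.3 FPKM in WT cells (SD, n = 3 each), with a log2 difference of 0.24 ± 0.13 (SE, limma adjusted p = 0.341).

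Max was at 30.2, 28.6 and 28.5 FPKM in KO, 32.3, 31.3 and 30.8 FPKM in HET and 37.6, 31.6 and 28.9 FPKM in WT libraries, with overlap between KO and WT (log2 difference -0.16, limma adjusted p = 0.380). Mxd1 was at 16.0, 16.9 and 16.6 FPKM in KO, 17.9, 24.3 and 25.1 FPKM in HET and 23.8, 19.3 and 19.9 FPKM in WT libraries. All KO libraries of Mxd1 lay below all HET and WT libraries. The log2 difference was -0.32 ± 0.12 between KO and WT (SE, limma adjusted p = 0.169) and -0.41 ± 0.12 between KO and HET (SE, limma adjusted p = 0.135).

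HET cells were compared with the same WT libraries, so the comparison shares its WT values with the KO one. Polr1b was the only member past the threshold: it averaged 8.83 ± 2.10 FPKM in HET and 5.26 ± 0.106 FPKM in WT cells (SD, n = 3 each), with a log2 change of 0.63 ± 0.15 (SE) and an adjusted p of 0.0397 in limma. That is 1 of 40 members (2.5%) beside 3.68% of all tested genes, of which 2.94% were higher and 0.735% lower, so the members' share did not exceed the background. The call was lost on leaving out any 1 of the 9 libraries except KO 2, with 0 members called without each of the other 8 (84 to 626 of all genes) and 3 without KO 2 (628 of all genes).

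The list leaned upward in HET cells as well. The median log2 difference was 0.22 over the members and 0.04 over all tested genes, and 32 members were positive. Without HET 1 the members' median was 0.12 and that of all genes 0.04. HET and WT libraries did not overlap for 19 members, 18 with HET above and Npm1 below, or 47.5% beside 29.1% of all tested genes (17.2% above and 11.9% below). Unadjusted p was under 0.05 for 17 members, beside 23.4% of all tested genes. The largest uncalled differences were those of Nop2 at 0.63, Rrp9 at 0.58 and Heatr1 at 0.53 (limma adjusted p of 0.0560, 0.0673 and 0.0806).

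HET 1 stood apart from the rest of its group. It was above both other HET libraries for 38 of the 40 members and was the highest of all 9 for 31. Its median deviation from the gene means was 0.30 on the log2 scale, against -0.02 and -0.05 in HET 2 and 3, while the KO libraries were at 0.10, -0.04 and 0.08 and the WT libraries at -0.11, -0.08 and -0.15. Over all tested genes the median deviation of HET 1 was 0.01. HET 2 and HET 3 were both above all WT libraries for 19 members (47.5%), among them Polr1a, Polr1b, Nop2, Gnl3 and Rrp9, beside 22.2% of all genes by the same rule.

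Without HET 1, 7 members rose in KO cells and none fell, beside 3.66% of 10834 tested genes called in either direction and 1.71% higher. HET 1 belongs to neither of those groups and enters their comparison through the shared estimate of the spread and through the filter, which keeps 10834 genes without it and 10877 with it. Gnl3, Nop2 and Polr1b were joined by Rrp9 (log2 change 0.51, limma adjusted p = 0.00995), Rrs1 (0.43, limma adjusted p = 0.0280), Nop56 (0.41, limma adjusted p = 0.0291) and Wdr43 (0.43, limma adjusted p = 0.0315). Of the 4 that joined, Nop56 and Rrs1 have 5 and 3 pseudogene copies, while Nop56, Rrp9 and Wdr43 overlap a gene on the other strand. Their values may therefore hold shared reads. Without HET 1, HET against WT gave 0 members, beside 1.38% of genes (1.26% higher).

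In KO against HET in vitro, no member was past the threshold (0 of 40, beside 1.99% of all tested genes, 0.598% higher and 1.39% lower). An unadjusted p under 0.05 was found for 2 members, beside 13.2% of genes, and the median log2 difference was -0.03, against -0.00 over all genes. The members' median changed sign with single libraries, at 0.09 without HET 1 (0.00 over all genes) and 0.03 without KO 2 (0.02 over all genes). The 4 members whose libraries did not overlap (10%, beside 22.4% of all tested genes, 11.3% above and 11.1% below) were Tcof1, Nat10, Max and Mxd1, all with KO below HET. Without HET 1, Gnl3 was higher in KO than in HET by 0.55 (limma adjusted p = 0.0285) and Mxd1 was lower (log2 change -0.55, limma adjusted p = 0.0227), which is 2 of 40 beside 1.45% of genes (0.323% higher).

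Transcript length moved with these differences. Across the 40 members, the Spearman correlation between the longest annotated transcript and the log2 difference was 0.29 for KO against WT and 0.48 for HET against WT, and over 10380 genes with a length it was 0.20 and 0.36; all points share the same libraries. The median deviation of long transcripts (5000 bases or more) minus that of short ones (under 1000 bases) was 0.12, -0.22 and 0.08 in KO, 0.12, 0.07 and 0.22 in HET and 0.09, -0.05 and -0.45 in WT libraries, with WT 3 lowest. With this trend removed in each library, Gnl3, Nop2 and Polr1b passed in KO against WT (limma adjusted p of 0.0201, 0.0325 and 0.0413), and Npm1 passed as lower (log2 change -0.25, limma adjusted p = 0.0182). All tested genes then gave 642 calls in that comparison, against 325 with the trend kept. In HET against WT they gave 627, against 400, and Npm1 passed as lower there too (log2 change -0.21, limma adjusted p = 0.037). The members without overlap in KO against WT then numbered 17 (42.5%, beside 28.1% of all genes). In HET against WT they numbered 12 in place of 19 (30%, beside 30.6% of all genes), a share no larger than the background, with 11 above (27.5%, beside 15.2%).

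**Figure D4:**
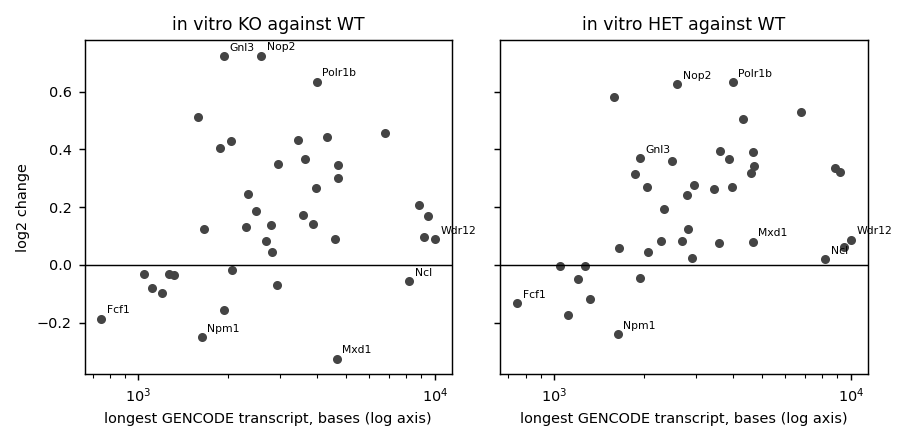
Log2 change of the 40 listed genes against the length of the longest GENCODE transcript in bases (log axis), KO against WT on the left and HET against WT on the right. Each point is a gene. Fcf1 (749 bases) and Npm1 (1633 bases) lie below 0 on both sides, while Rrp9 (1586 bases) and Nop56 (1877 bases) lie above 0 on both. Gnl3 (1947 bases) and Nop2 (2597 bases) lie highest on the left.

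Markers of other cells also moved with genotype in vitro. The 8 macrophage or monocyte markers summed to 83.4 to 88.0 FPKM in KO, 106 to 118 FPKM in HET and 53.5 to 69.4 FPKM in WT libraries, without overlap; 1 of the 7 tested was called higher in KO and 5 in HET, and C1qa was listed at 0 in 8 of the 9 libraries. The 7 stem and progenitor markers summed to 144 to 172 FPKM in KO, 108 to 126 FPKM in HET and 126 to 151 FPKM in WT libraries, with 2 of the 6 tested called higher in KO and 0 in HET. The 13 cycling markers summed to 845.5 to 913 FPKM in KO, 875 to 999 FPKM in HET and 850.2 to 993 FPKM in WT libraries, and 0 of 13 were called in KO or in HET against WT.

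The 8 neutrophil granule markers summed to 3252, 6121 and 3195 FPKM in KO libraries 1 to 3, 4455 to 5208 FPKM in HET and 4332 to 4811 FPKM in WT libraries, with KO 2 above and KO 1 and 3 below all the others. Of the 7 tested, 2 were called higher in HET and 0 in KO against WT. The 6 erythroid markers summed to 131 to 185 FPKM in KO, 112 to 133 FPKM in HET and 154 to 182 FPKM in WT libraries, and of 5 tested, 1 was called lower in HET and 0 in KO. The 5 mast cell or basophil markers summed to 1070 to 1624 FPKM in KO and 1605 to 1771 FPKM in HET libraries. In WT libraries 1 to 3 they summed to 880, 1626 and 2064 FPKM. Of these 5 genes, 0 were called in KO or in HET against WT, while 3 were positive in KO and 5 in HET. The part of cell composition in the members' differences was not tested.

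Beyond the list, 150 other genes of the same machinery were examined, of which 144 were in the in vitro table and 141 were tested. Of these 2 rose and 4 fell in KO cells (4.26%, beside the 2.99% above). Exosc8, a core protein of the RNA exosome that trims ribosomal RNA precursors, fell to 107 ± 7.28 FPKM in KO, against 172 ± 17.7 FPKM in WT cells (SD, n = 3 each; log2 change -0.68, limma adjusted p = 0.00269). Mphosph6, which associates with the exosome, was at 31.0 ± 3.80 FPKM in KO and 47.4 ± 2.03 FPKM in WT cells (log2 change -0.60, limma adjusted p = 0.0105).

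Ruvbl2, a helicase of the complex that assembles box C/D particles, was at 58.7 ± 4.95 FPKM in KO and 81.7 ± 5.32 FPKM in WT cells (log2 change -0.47, limma adjusted p = 0.0108). Mxi1, a Max partner related to Mxd1, was at 15.4 ± 3.57 FPKM in KO and 25.9 ± 1.55 FPKM in WT cells (log2 change -0.73, limma adjusted p = 0.0257). KO lay below WT in every library for all 4 of these genes. The 2 that rose in KO cells were Taf1c (log2 change 0.44, limma adjusted p = 0.047) and Utp25 (log2 change 0.50, limma adjusted p = 0.048). The assembly factors proper leaned upward, with median log2 differences of 0.14 over 46 other small subunit genes and 0.16 over 49 other large subunit genes, of which 1 and 0 were called.

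In HET against WT, 2 of the 141 rose and 2 fell (2.84%, below the 3.68% of all tested genes). Taf1c, a subunit of the factor that recruits RNA polymerase I, was at 5.69 ± 0.843 FPKM in HET and 3.76 ± 0.0765 FPKM in WT cells (log2 change 0.48, limma adjusted p = 0.0297). Rrp1b, a large subunit factor, was at 11.6 ± 1.19 FPKM in HET and 8.36 ± 0.236 FPKM in WT cells (log2 change 0.42, limma adjusted p = 0.0426). Mphosph6 and Exosc8 were again lower (log2 changes of -0.49 and -0.38, limma adjusted p of 0.0231 and 0.0403). KO against HET gave 0 calls among the 141.

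In the sorted marrow set, values of the same genes were far more scattered, and 34 of the 40 members passed the filter of 1 FPKM in at least 3 libraries. Polr1b, Utp20, Nat10, Rrp12, Rrs1 and Noc3l did not. An FPKM of exactly 0 need not mean absence, since an estimate can fail, so such genes are called listed at 0. Members listed at 0 numbered 8, 9 and 6 of 40 in the KO libraries, 25 and 20 in HET 1 and HET 3, and 6, 9 and 6 in WT, which is 15% to 22.5% in KO, 62.5% and 50% in HET and 15% to 22.5% in WT. Over all genes of the table the shares at 0 were 35.4 to 50.3% in KO, 72.5 and 60.5% in HET and 35.4 to 37.9% in WT.

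**Figure D5:**
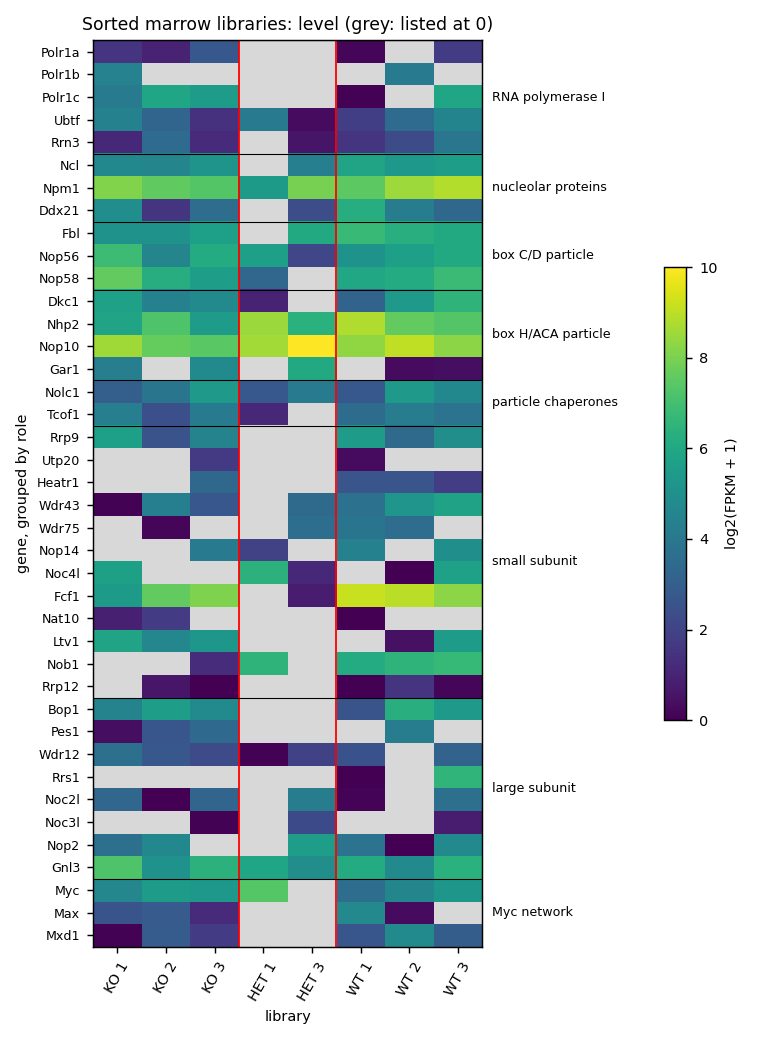
Level in log2(FPKM + 1) of the 40 listed genes by role in the 8 sorted marrow libraries, 3 KO, 2 HET and 3 WT, with grey for genes listed at 0. The HET columns hold 25 and 20 grey cells, and Fcf1 is bright in all WT libraries and dark or grey in HET.

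Fcf1 was the only member called in the sorted set under the chosen settings, and it was low in HET. It was at 42.7, 192 and 271 FPKM in KO libraries, listed at 0 and at 0.720 FPKM in HET libraries 1 and 3, and at 572, 499 and 307 FPKM in WT libraries. The 3 genotypes did not overlap, with HET lowest and WT highest. Against WT cells, Fcf1 of HET cells fell by 8.41 on the log2 scale (limma adjusted p = 0.0118), and it was 6.65 higher on that scale in KO than in HET cells (limma adjusted p = 0.0386); sizes this far from 0 depend on the pseudocount of 1. In KO against WT the log2 difference was -1.76 and did not pass (limma adjusted p = 0.993).

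The call on Fcf1 is 1 of 34 tested members in each comparison (2.94%), beside 0.262% of 7246 genes for HET against WT and 0.166% for KO against HET. In HET against WT it passed without KO 1 and was lost without KO 2, KO 3, WT 1, WT 2 or WT 3 (highest limma adjusted p = 0.128). In KO against HET it was lost without any 1 of the KO or WT libraries (highest limma adjusted p = 0.319). In each of these refits that lost it, 0 of all tested genes were called, so every call was lost and not that of Fcf1 alone. Leaving out HET 1 or HET 3 left 1 HET library, and no call is read from those refits. The HET libraries had the lowest depth and the most genes at 0, and the part of depth in this difference was not tested. Fcf1 is short, at 749 bases, shares exon sequence with Arel1 on the other strand and has 1 pseudogene copy; in vitro it was at 94.8, 101 and 89.7 FPKM in KO, 101, 98.2 and 97.0 FPKM in HET and 100.2, 105 and 121 FPKM in WT libraries, with no low HET value.

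KO against WT gave no call in sorted marrow, with 0 of 34 members and 0 of 7246 genes past the threshold in limma (0% of genes), and unadjusted p under 0.05 for 2 members and 370 genes (5.11%). The 2 members were Nob1, the nuclease that makes the mature end of the small subunit RNA, and Nhp2. Nob1 was listed at 0 in KO 1 and KO 2 and at 1.42 FPKM in KO 3, at 90.6 FPKM and 0 in HET, and at 69.3, 89.7 and 104 FPKM in WT libraries. All KO libraries were far below WT, the HET pair split, and the log2 difference of -6.02 had a limma adjusted p of 0.452. KO lay below WT without overlap for 5 of 34 members and above it for 0, beside 8.14% of genes below, 4.11% above and 12.3% in all. The members' median log2 difference was -0.20, against -0.18 over all genes, and it moved with single libraries. It was -0.65 without KO 1 (-0.02 over all genes), -0.43 without KO 3 (-0.25), -0.67 without WT 1 (-0.26) and 0.03 without WT 3 (-0.15). With median-ratio size factors it was 0.00 and with the length trend removed 0.01, so no direction is read from it.

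Npm1, Gnl3 and Myc were above 0 in every KO and WT sorted library. Npm1 was at 277, 190 and 158 FPKM in KO, 42.9 and 248 FPKM in HET and 179, 366 and 457 FPKM in WT libraries. Gnl3 was at 151, 34.1 and 84.1 FPKM in KO, 58.6 and 29.9 FPKM in HET and 71.1, 26.8 and 82.6 FPKM in WT libraries. Myc was at 23.6, 44.1 and 38.8 FPKM in KO, 163 FPKM and listed at 0 in HET, and 10.8, 22.8 and 38.4 FPKM in WT libraries. KO and WT overlapped for all 3 genes, and none was called.

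In HET against WT the members' median log2 difference was -1.86, against -0.99 over all genes, and 12 of 34 did not overlap (35.3%, beside 30.1% of all tested genes), all with HET below (24.3% of genes were below and 5.8% above). Unadjusted p was under 0.05 for 8 members, beside 12.4% of genes. In KO against HET the medians were 1.63 and 0.83, with 15 members above and 1 below without overlap (47.1%, beside 27.9% of genes, 20.7% above and 7.27% below) and 8 at an unadjusted p under 0.05 (11.3% of genes).

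These medians depended on the settings. In HET against WT the median of all genes was -0.03 under quantile normalization, -0.93 with median-ratio size factors and -1.23 after rescaling to TPM, with members' medians of -0.83, -1.80 and -2.09. The ends of the range came from other settings, with -1.93 over all genes and -3.02 over the members at a pseudocount of 0.1, and 0.09 and -0.40 with the length trend removed. Without HET 3 the median of all genes was -1.59 in HET against WT and 1.41 in KO against HET.

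Neutrophil granule markers summed to 41910 to 58910 FPKM in KO, 29860 to 35090 FPKM in HET and 5354 to 18000 FPKM in WT sorted marrow libraries, without overlap. Of the 8 tested, 0 were called in KO or in HET against WT. KO lay above WT without overlap for 3 of the 8 and below for 0, beside 4.11% and 8.14% of genes. HET lay above WT without overlap for 2 and below for 2, beside 5.8% and 24.3% of genes, and 4 of the 8 differences were positive. Camp and Ngp gave the largest sums in KO, Ltf was listed at 0 in both HET libraries and in 1 WT library, and 0 to 2 of the 8 genes were at 0 in a library. Stem and progenitor markers, 5 of 7 present in the table, summed to 16.9 to 83.0 FPKM in KO and 84.4 to 129 FPKM in WT libraries. In HET libraries they summed to 0 and 12.4 FPKM, and all 5 were at 0 in HET 1. The sums did not overlap, but the highest KO and lowest WT sums stood close, at 83.0 and 84.4 FPKM. Of the 4 genes tested, 0 were called in KO or in HET against WT. KO and WT overlapped for all 4, with 2 differences positive, and 0 were positive in HET against WT. Stroma markers, 2 of 6 present, summed to 11.5 to 78.5 FPKM in KO, 0.530 and 0 FPKM in HET and 22.6 to 47.5 FPKM in WT libraries. The part of these markers in the members' values was not tested.

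Whether the KO minus WT difference itself differed between the in vitro and the sorted set was asked with an interaction contrast in limma on 6915 genes. None of the 34 members that could be tested passed (0 of 34, with 2 at an unadjusted p under 0.05, beside 0.738% of genes past the threshold). The smallest adjusted p was that of Nob1, at 0.114. The SE of this contrast was 0.80 for Gnl3 and 2.04 for Nop2, larger than their in vitro log2 changes of 0.72 each. It could therefore not decide whether the higher Gnl3 and Nop2 of the in vitro KO cells were particular to that set. Polr1b could not be compared because it failed the filter in sorted marrow.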

How the data were processed

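Bulk RNA from sorted Fabp4 KO, HET and WT mouse bone marrow cells was extracted with TRIzol and made into libraries with a VAHTS kit, per the labels' protocols. The authors deposited FPKM in a table for each set; their genome build was mm10, as the submitters' processing notes give it. No aligner, counter, annotation or strand setting is named in the sources used here. FPKM fix no raw depth, and a few abundant transcripts lower all others. Whether both tables share a scaling is unknown, so no test set levels of one against the other.

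Members were matched by gene name. The 40 genes, the 150 other pathway genes and the 72 marker genes were chosen with earlier results of these data known. Tests used limma 3.58.1 in R 4.3.3 (statmod 1.5.0) on log2(FPKM + 1), with trend and robust moderation, in 1 fit per table without a block. A gene needed 1 FPKM or more in 3 libraries or more to enter (10877 in vitro, 7246 in sorted marrow), and p-values were Benjamini-Hochberg adjusted over all of them at a threshold of 0.05. Changes on this scale understate those of low genes. The fit was tested on simulated data.

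Values in every library were given for called members and for Myc, Max, Mxd1, Ncl, Npm1, Fbl and Polr1a. Up to 4 called genes of the other pathway list were named per comparison and, beyond these, Taf1c and Utp25 in KO against WT. Values of Nob1 and the members called without HET 1 were given after seeing them. Depth was estimated from value steps of single-exon genes (74.1 to 86.3% fell within 0.1 of whole steps) and entered no test. Lengths, positions, overlaps and copies came from GENCODE on GRCm38, and promoters from RefSeq GRCm38.p6. Removing the length trend was an alternative added after seeing the data; the others were a pseudocount of 0.1, no filter, TPM, median-ratio size factors, a filter at FPKM of 5, quantile scaling, only the compared groups, a replicate block, and leaving out each library.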

Additional observations from a re-analysis of the deposited data

How the results depend on the processing

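Of 474 values recomputed under an alternative, 309 kept their direction and side of the threshold or moved little, 113 moved, 52 lost the threshold, and no value past the threshold changed sign. The members' medians, which carry no test, changed sign in 5 of 105 alternatives: in vitro KO against HET (0.09 without HET 1, 0.03 without KO 2) and sorted marrow KO against WT (0.03 without WT 3, 0.00 with median-ratio size factors, 0.01 with the length trend removed). Where no cause is given, it was not tested. In vitro, members called in KO against WT numbered 3, with 0 under no filter, 1 under TPM and 0 to 7 when leaving out a library; in HET against WT they numbered 1, with 0 under no filter, 0 under quantile normalization, 0 with only the compared groups, 2 with the length trend removed and 0 to 3 when leaving out a library; in KO against HET, 0 to 2 when leaving out a library. When leaving out a library, members without overlap ranged from 17 to 29 in KO against WT (42.5 to 72.5%, beside 22.9 to 44.9% of all genes). In HET against WT they ranged from 19 to 24 (47.5 to 60%, beside 29.1 to 46.9% of all genes). The highest counts came without KO 2 and without WT 1, where the shares of all genes were highest as well. With the length trend removed, they were 12 in HET against WT (30%, beside 30.6% of all genes). Over all genes, KO against WT gave 325 calls, with 152 under no filter, 175 with only the compared groups, 642 with the length trend removed and 66 to 475 when leaving out a library. HET against WT gave 400, with 250 under no filter, 261 with only the compared groups, 627 with the length trend removed and 84 to 628 when leaving out a library, and KO against HET gave 216, with 136 under a filter at FPKM of 5 and 73 to 344 when leaving out a library.

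In sorted marrow, members called in KO against WT stayed at 0 when leaving out a library (0 to 0), and all genes gave 0 calls, with 2 under quantile normalization and 0 to 4 when leaving out a library. HET against WT gave 1 member, with 0 with only the compared groups and 0 to 4 when leaving out a library, and 19 genes, with 35 at a pseudocount of 0.1, 12 under quantile normalization, 0 with only the compared groups, 5 with the length trend removed and 0 to 323 when leaving out a library. KO against HET gave 1 member, with 0 under no filter, 0 under quantile normalization, 0 with only the compared groups, 0 with the length trend removed and 0 to 3 when leaving out a library, and 12 genes, with 31 at a pseudocount of 0.1, 6 under no filter, 7 under quantile normalization, 0 with only the compared groups, 0 with the length trend removed and 0 to 330 when leaving out a library. Leaving out a HET library left that arm with 1 library, assumed to vary like the other groups. The members called for the difference between the sets ranged from 0 to 2 when leaving out a library. At 3.94 and 11.6 M fragments, the HET libraries limit what low genes can show.

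Correlations of the libraries' deviations could not decide whether replicate numbers pair them, since deviations centred within small groups constrain one another. Same-numbered libraries correlated at -0.30 to 0.18 in vitro (3 of 9 pairs over 0.1) and at -0.02 to 0.03 in sorted marrow (0 of 7). In vitro, 2 of 9 libraries correlated best with their own number. Same-numbered HET and KO libraries in vitro correlated at 0.11, 0.18 and 0.05, each the highest for that HET library among the KO libraries. Same-numbered pairs with WT in vitro were negative except KO 1 with WT 1, at 0.18. With the replicate number as a block, all genes gave 172 calls in KO against WT and 234 in HET against WT in vitro, and 0 calls in both HET comparisons in sorted marrow, where 0 members were then called in either. Under that block Polr1b had an adjusted p of 0.0612 in KO against WT and 0.0542 in HET against WT in limma, and Nop2 passed in HET against WT (limma adjusted p = 0.0349).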

Other observations

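Several members carry genes of small nucleolar RNAs, the guides of ribosomal RNA modification, inside their own span. GENCODE places such genes within 6 of the 40 members (15%), namely Ncl with 3, Nop56 with 5, Nop58 with 4, Dkc1 with 1, Wdr43 with 3 and Gnl3 with 3, against 1.84% of 9955 tested protein-coding genes. The in vitro log2 differences between KO and WT of these 6 hosts ran from -0.06 to 0.72, with a median of 0.29. The levels of the small RNAs themselves were not analysed here.

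Levels within the list spanned a wide range per length in vitro. After Npm1, the mean FPKM over the 9 libraries was 138 for Ncl, 130 for Fbl, 116 for Nop10, 116 for Myc and 101 for Fcf1. The catalytic subunit gene Polr1a was at 7.73 FPKM, and Utp20 and Rrp12 were lowest at 2.64 and 3.55 FPKM.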
